A study of Rattus norvegicus with 12 samples.

Results

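The genes described here are the ligands and receptors of the FGF family and of the TGF-beta superfamily in the rat dorsal root ganglion (DRG). They were chosen by name, as the rows whose symbol begins with Fgf, Fgfr, Bmp, Gdf, Tgfb or Tgfbr and a number, or with Bmpr, Inha, Inhb or Acvr. This gave 66 symbols of the 16861 annotated in the SNL table, and the same 66 of the 16842 annotated in the shRNA table. Of the 66, 26 belong to the FGF family, 37 to the TGF-beta superfamily, and 3 are other proteins that share the name (Bmp1, Fgfr1op2 and Tgfb1i1). Where a symbol had several rows, the row with the highest mean FPKM was taken. FPKM counts sequenced fragments relative to transcript length and to the mapped fragments of a library, so levels of different genes are set side by side per length.

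All animals were Sprague Dawley rats, male by the labels, although the methods name male and female rats, and 5 to 6 weeks old by the methods. The L5 DRG, which holds the cell bodies of the sensory neurons of that nerve, was profiled by polyA RNA sequencing in 4 groups of 3 libraries, all at Day 14 after spinal nerve ligation (SNL), a model of neuropathic pain. In the SNL group the ganglion came from the ligated side, and in the Control group it came from the opposite, unligated side, so that Control is not tissue from rats without surgery. The 2 other groups also had SNL and had an AAV vector put into the ganglion 7 days before it, encoding either Neat1 shRNA or control shRNA. The study describes these vectors as acting in primary sensory neurons. The deposited tables hold 1 FPKM value per group over its 3 libraries, so no value below has a spread or a test, and a ratio above 1.5 or below 0.67, where the larger value was 1 FPKM or more, is called past the fold as a description only.

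Secreted FGFs bind FGF receptor tyrosine kinases together with heparan sulfate and signal mainly through the MAP kinase ERK, whereas the FGF homologous factors stay inside the cell and bind voltage-gated sodium channels. Ligands of the TGF-beta superfamily (TGF-betas, activins, BMPs and GDFs) assemble type I and type II receptor kinases, which phosphorylate SMAD transcription factors. In peripheral nerve and ganglion both families are known for acting on neurons, glia and connective tissue after injury.

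The promoters of the members with the highest and the lowest SNL to Control ratios, and of Fgf13, are printed first, because the largest differences described below lie in their genes. RefSeq promoters of the GRCr8 build, running from 250 bases before to 50 bases after the annotated start, were matched for 53 of the 66 members, and 3 of these had more than 1. They are written in the direction of the gene, and capitals mark letters of 4 motifs searched on both strands: the AP-1 motif TGANTCA, the CRE TGACGTCA, the GC box GGGCGG and the E-box CACGTG. The windows lie at chr2:122164204-122164503 on the plus strand for Fgf2, chr14:11650194-11650493 on the minus strand for Fgf5, chr13:33089324-33089623 on the minus strand for Inhbb, chr11:85501697-85501996 on the plus strand and chr11:85801508-85801807 on the plus strand for Fgf12, and chrX:142423487-142423786 on the minus strand for Fgf13.
Fgf2: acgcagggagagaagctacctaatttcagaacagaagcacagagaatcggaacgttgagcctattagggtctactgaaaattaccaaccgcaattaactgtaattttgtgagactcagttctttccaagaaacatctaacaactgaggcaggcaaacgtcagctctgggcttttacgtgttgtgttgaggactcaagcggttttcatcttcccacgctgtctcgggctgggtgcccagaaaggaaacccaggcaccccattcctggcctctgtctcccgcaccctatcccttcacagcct
Fgf5: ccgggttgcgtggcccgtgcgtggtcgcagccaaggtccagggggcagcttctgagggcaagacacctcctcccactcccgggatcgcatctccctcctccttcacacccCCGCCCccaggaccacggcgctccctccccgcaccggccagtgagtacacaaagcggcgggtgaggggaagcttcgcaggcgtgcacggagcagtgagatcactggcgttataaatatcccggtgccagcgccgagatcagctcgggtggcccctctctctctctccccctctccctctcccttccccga
Inhbb: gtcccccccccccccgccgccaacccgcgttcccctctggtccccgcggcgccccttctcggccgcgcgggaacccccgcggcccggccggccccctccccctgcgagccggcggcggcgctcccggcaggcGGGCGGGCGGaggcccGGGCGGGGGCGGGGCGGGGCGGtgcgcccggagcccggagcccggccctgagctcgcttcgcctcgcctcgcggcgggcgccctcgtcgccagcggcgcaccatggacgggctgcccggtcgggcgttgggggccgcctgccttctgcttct
Fgf12, first start: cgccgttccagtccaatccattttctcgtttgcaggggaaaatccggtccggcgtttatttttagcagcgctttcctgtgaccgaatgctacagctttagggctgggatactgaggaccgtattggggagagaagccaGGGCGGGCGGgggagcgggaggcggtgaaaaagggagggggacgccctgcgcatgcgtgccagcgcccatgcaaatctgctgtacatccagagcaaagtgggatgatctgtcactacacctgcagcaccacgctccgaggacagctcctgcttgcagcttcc
Fgf12, second start: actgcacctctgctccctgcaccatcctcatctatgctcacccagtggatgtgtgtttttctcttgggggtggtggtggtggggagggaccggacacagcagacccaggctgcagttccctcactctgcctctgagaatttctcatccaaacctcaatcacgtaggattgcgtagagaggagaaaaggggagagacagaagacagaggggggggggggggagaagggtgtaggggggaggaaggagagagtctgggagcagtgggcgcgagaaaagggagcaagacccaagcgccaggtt
Fgf13: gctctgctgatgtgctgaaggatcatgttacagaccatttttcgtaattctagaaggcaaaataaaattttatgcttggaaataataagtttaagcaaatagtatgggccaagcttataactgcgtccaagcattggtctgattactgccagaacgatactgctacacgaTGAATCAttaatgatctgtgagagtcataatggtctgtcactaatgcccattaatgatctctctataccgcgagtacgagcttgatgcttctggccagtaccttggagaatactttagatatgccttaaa

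The GC content was 49.7% in the Fgf2 window, 67.3% in Fgf5, 84.3% in Inhbb, 58.7% and 58.3% in the Fgf12 windows and 39.0% in Fgf13, beside a median of 51.7% over all 33469 promoters. The Inhbb window held 6 GC boxes, the first Fgf12 window 2 and the Fgf5 window 1 (written as CCGCCC on the printed strand), and the Fgf2, second Fgf12 and Fgf13 windows held none. A GC box was in 32 of the 56 member promoters, beside 33.1% of all promoters. The AP-1 motif was in 2 of the 56 (Fgf13, as TGAATCA, and Bmpr1a), beside 7.33% of all promoters. No CRE was found in them, beside 1.83%, and an E-box was in 6, beside 6.42%. A GC box was in 8 of 9 promoters of members higher after SNL and in 7 of 11 of members lower after SNL. It was in 7 of 14 of members within the fold and in 10 of 22 of members under 1 FPKM in both groups. The median GC content of these classes was 69.7%, 63.3%, 59% and 58.2%, in that order. An E-box was in 1 of 9 and 1 of 11 promoters of the higher and lower members. Acvr1, Acvrl1, Bmp1 and Bmp7, higher after SNL, had no matched promoter, and Fgf12 gave 2 of the 11. A match is only a description of the letters in this window.

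The samples held the genes that define a sensory ganglion, such as the peripheral neuron filament Prph at 1734 FPKM after SNL and 1643 FPKM in Control, and the levels of cell type markers differed between these groups. Summed levels of the 10 neuron markers were 8248 FPKM after SNL and 10142 FPKM in Control, with 7 of 10 lower and 1 higher, whereas all 5 measured injury markers of neurons were higher (2323 against 263 FPKM). All 8 macrophage markers (216 against 40.7 FPKM), all 6 measured T cell markers (37.2 against 8.79 FPKM) and all 6 fibroblast markers (1695 against 699 FPKM) were higher. Schwann cell markers (5742 against 7229.8 FPKM, 2 higher and 1 lower of 7) and satellite glia markers (2914 against 4394 FPKM, 1 higher and 3 lower of 6) had lower sums. None of the listed markers was at 0 in SNL or Control, and their part in the results was not tested. In whole ganglia, fewer cells of a type and less RNA per cell cannot be told apart. Neat1 carries no symbol, so the unnamed row of highest mean FPKM within 60 kb of Frmd8 was taken for it. This row was at 294 FPKM after SNL and 141 FPKM in Control. It was at 374 FPKM in the group labelled Neat1 shRNA and 355 FPKM with control shRNA, so it was not lower in the group that should carry the knockdown. By qPCR of the L5 DRG after SNL, however, the paper reported less Neat1 with the shRNA vector than with its control. Why the readings differ was not tested.

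To see how growth factor signalling genes differed in the injured ganglion, SNL was compared with Control. Of the 66 members, 39 reached 1 FPKM in at least 1 of these groups. Past the fold were 13 higher members (33.3% of the 39) and 11 lower members (28.2%), whereas of all 11395 annotated symbols at this level 19.2% were higher, 16.5% lower and 35.6% either. All 5 members that reached 1 FPKM in only 1 group were past the fold. Entering through 1 group selects for unlike values but does not by itself place a member past the fold. Between the shRNA groups 1 of 4 such members was past it. With 1 value per group and no test, the count is not read as a property of the families. The members' median log2 ratio of SNL over Control was -0.15 (0.01 over all symbols), and the median size of the log2 ratio was 0.75 (0.40 over all symbols). The receptors had 7 higher and 4 lower of 15 measured, and the ligands, FGF homologous factors not counted, had 5 higher and 5 lower of 19 measured of 43.

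**Figure D1:**
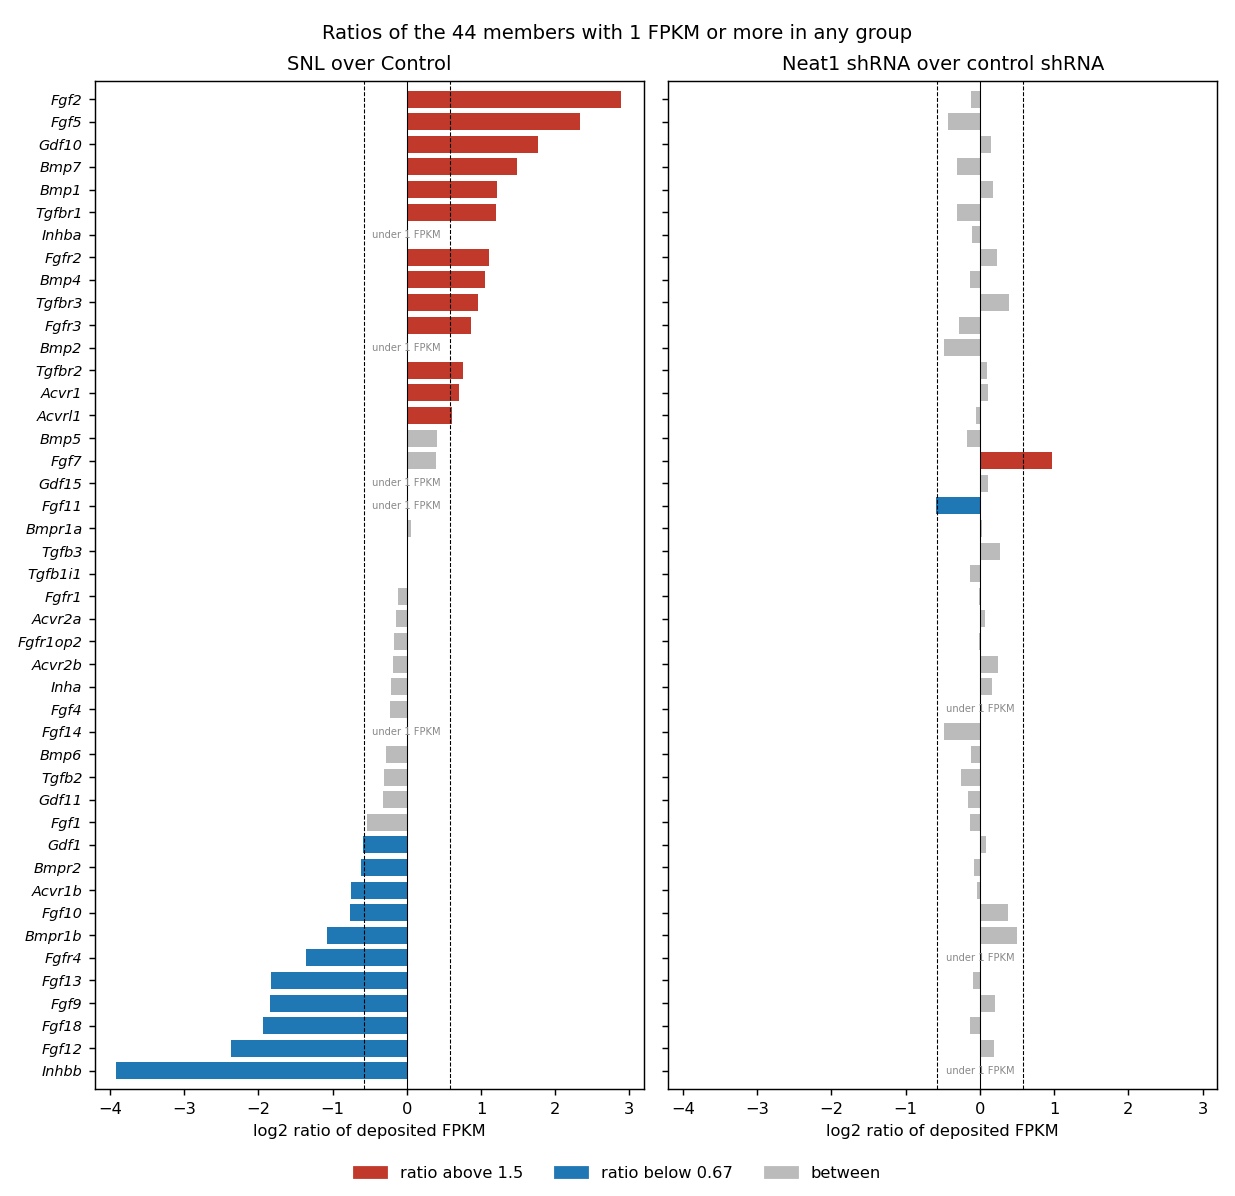
Horizontal bars give the log2 ratio of the deposited FPKM for the 44 members with 1 FPKM or more in any group, SNL over Control on the left and Neat1 shRNA over control shRNA on the right. Dashed lines mark ratios of 1.5 and 0.67. On the left the bars run from -3.92 (Inhbb) to 2.89 (Fgf2), and on the right 2 bars pass a line, Fgf7 at 0.97 and Fgf11 at -0.59.

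Among the secreted FGFs, 2 were higher after SNL, 3 were lower and 3 lay between, of 8 measured. Fgf2 (basic FGF, a broadly acting mitogen and survival factor) had 22.2 FPKM after SNL, against 3.0 FPKM in Control, a log2 ratio of 2.89 and the largest of all measured members. Its row shares a locus with Nudt6, a gene on the opposite strand that overlaps Fgf2, and the Nudt6 row had 2.17 FPKM after SNL and 3.18 FPKM in Control. Libraries were stranded, but how strand entered the counting is not given in the sources used here. The place of Fgf2 among the annotated symbols was at percentile 79.2 after SNL and 44.4 in Control. Fgf5, best known for ending the growth phase of the hair follicle, had 4.41 FPKM after SNL, against 0.879 FPKM in Control (log2 ratio 2.33). In the AAV groups labelled Neat1 shRNA and control shRNA the levels were 16.3 and 17.7 FPKM for Fgf2 and 7.27 and 9.83 FPKM for Fgf5, in a table that was normalized separately.

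The 3 lower secreted FGFs belong to the FGF7, FGF8 and FGF9 subfamilies. Fgf18, a ligand that acts chiefly on cartilage and bone through FGFR3, had 4.87 FPKM after SNL, against 18.6 FPKM in Control (log2 ratio -1.93). Fgf9, which is made by neurons and glia and was first known as glia-activating factor, had 5.73 FPKM after SNL, against 20.6 FPKM in Control (log2 ratio -1.85). These genes of different subfamilies thus stood at like levels in Control and at like levels after SNL. Fgf10, which signals from mesenchyme to epithelium through an isoform of FGFR2, was low in both groups, with 1.44 FPKM after SNL, against 2.46 FPKM in Control (log2 ratio -0.77).

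Fgf1 (acidic FGF, which binds all FGF receptors and lacks a classical signal peptide) was the most abundant secreted FGF in all 4 groups. Its level was 107 FPKM after SNL, against 156 FPKM in Control, and the ratio of 0.687 lay within the fold, close to the limit of 0.67. Its row shares a locus of the authors' assembly (chr18:31408741-32351294, rn5) with 4 other symbols. Fgf1 made up most of the sum of the secreted FGF ligands, which was 157 FPKM after SNL and 211 FPKM in Control. Fgf7 (keratinocyte growth factor, a mesenchymal ligand of epithelial FGFR2) had 9.41 FPKM after SNL, against 7.13 FPKM in Control, and lay within the fold (log2 ratio 0.40), as did Fgf4 with 1.21 FPKM after SNL, against 1.42 FPKM in Control.

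The FGF homologous factors gave the largest differences in FPKM. Fgf13, which binds sodium channels and microtubules in neurons, had 47.3 FPKM after SNL, against 168 FPKM in Control (log2 ratio -1.83), and was the highest of all 66 members in Control. Fgf12, a close relative that also binds sodium channels, had 23.4 FPKM after SNL, against 120.1 FPKM in Control (log2 ratio -2.36). In the groups labelled Neat1 shRNA and control shRNA the levels were 42.9 and 45.8 FPKM for Fgf13 and 22.2 and 19.3 FPKM for Fgf12. The other homologous factors were low, Fgf11 with 0.775 and 0.637 FPKM and Fgf14 with 0.751 and 0.907 FPKM in SNL and Control, under the floor in this comparison. All 4 summed to 72.2 FPKM after SNL, against 289.7 FPKM in Control. Of the neuron markers set beside them, Rbfox3, Snap25 and Nefh had log2 ratios of -2.44, -1.87 and -1.97, whereas Uchl1, Prph and Tubb3 had -0.19, 0.08 and 0.62, so neuron genes covered the range from lower to higher and the part of neuron number in the Fgf12 and Fgf13 values was not tested.

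The FGF receptors, the tyrosine kinases through which secreted FGFs act, differed in direction. Fgfr1 was by far the highest at 70.5 FPKM after SNL, against 76.2 FPKM in Control, a log2 ratio of -0.11 that is within the fold. Fgfr2 had 5.05 FPKM after SNL, against 2.34 FPKM in Control (log2 ratio 1.11), and Fgfr3 had 1.5 FPKM after SNL, against 0.819 FPKM in Control (log2 ratio 0.87). Fgfr4 went the other way, with 0.50 FPKM after SNL, against 1.28 FPKM in Control (log2 ratio -1.36). The 4 receptors summed to 77.5 FPKM after SNL and 80.7 FPKM in Control, most of it from Fgfr1.

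**Figure D2:**
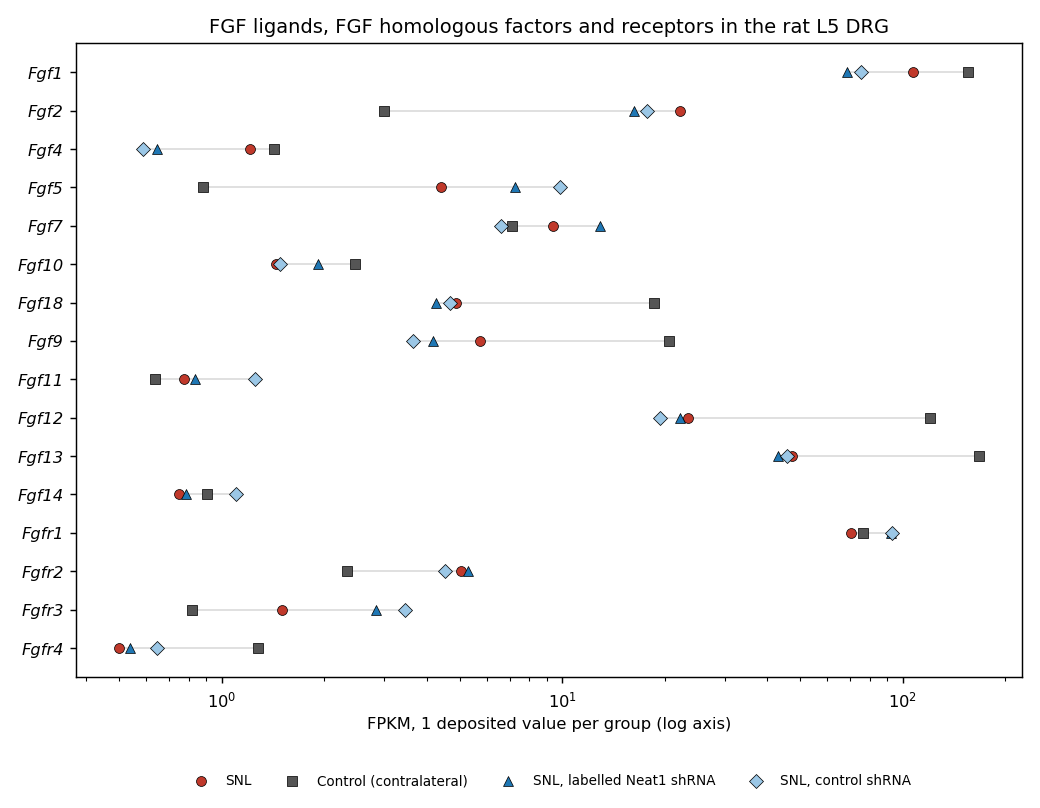
Points give the deposited FPKM on a log axis, 1 value per group, of the FGF ligands, FGF homologous factors and receptors with 1 FPKM or more in any group. For Fgf12, Fgf13, Fgf18 and Fgf9 the Control square stands alone on the right of the 3 SNL groups, and for Fgf2 and Fgf5 alone on the left.

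Of the TGF-beta superfamily ligands and subunits, 3 were higher and 2 lower after SNL of 11 measured of 25. The lowest ratio of all measured members was that of Inhbb, the beta-B subunit shared by activin B and inhibin B, with 0.315 FPKM after SNL, against 4.78 FPKM in Control (ratio 0.0659, log2 ratio -3.92). Inhbb was at 0.441 and 0.623 FPKM in the groups labelled Neat1 shRNA and control shRNA, so all 3 groups with SNL lay under 1 FPKM and Control alone above it. Its paralogue Inhba (activin A subunit) was under the floor here, with 0.924 FPKM after SNL and 0.404 FPKM in Control, but reached 1.96 and 2.10 FPKM in those groups. Inha, the alpha subunit that turns an activin dimer into an inhibin, had 5.95 FPKM after SNL, against 6.91 FPKM in Control, and lay within the fold. In Control Inhbb was thus above Inhba, and in all 3 SNL groups it was below it.

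The TGF-beta ligands with a row of their own, Tgfb2 and Tgfb3, lay within the fold after SNL. Tgfb3 had 10.7 FPKM after SNL, against 10.7 FPKM in Control, and Tgfb2 had 3.58 FPKM after SNL, against 4.40 FPKM in Control. Tgfb1, the isoform best known from inflammation and scarring, has no row of its own. It stands in a row joined with its neighbour B9d2, which had 24.1 FPKM after SNL and 9.41 FPKM in Control (log2 ratio 1.36), and the share of Tgfb1 in that row cannot be told apart from that of B9d2. This row is not counted among the members.

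Among the BMPs, morphogens that signal through SMAD1, SMAD5 and SMAD9, 2 of 4 measured were higher after SNL and none was lower. Bmp7 had 6.24 FPKM after SNL, against 2.24 FPKM in Control (log2 ratio 1.48). Bmp4 had 2.18 FPKM after SNL, against 1.05 FPKM in Control (log2 ratio 1.05). Bmp6 and Bmp5 lay within the fold, Bmp6 with 6.19 FPKM after SNL, against 7.52 FPKM in Control, and Bmp5 with 1.74 FPKM after SNL, against 1.32 FPKM in Control. Bmp2 was under the floor, at 0.783 and 0.443 FPKM in SNL and Control. No BMP ligand reached 10 FPKM in either group, whereas Bmp6 reached 12.1 and 13.2 FPKM in the groups labelled Neat1 shRNA and control shRNA.

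Of the GDFs, Gdf10 (also called BMP3b) was higher, with 3.87 FPKM after SNL, against 1.14 FPKM in Control (log2 ratio 1.77). The rows of Gdf10, Bmpr1a and Gdf2 all carry the same locus of the authors' assembly (chr16:8493024-10843082, rn5), and it is not stated how the reads in it were divided among its genes. Gdf1 is a ligand of the Nodal type known from left-right patterning in the mouse embryo. Its row had 16.9 FPKM after SNL, against 25.3 FPKM in Control, a ratio of 0.666 just past the limit. A second Gdf1 row at the same locus had 9.77 FPKM after SNL and 9.10 FPKM in Control, and with both rows summed Gdf1 was not past the fold. Gdf11, a ligand close to myostatin, had 8.87 FPKM after SNL, against 11.1 FPKM in Control, and lay within the fold. Gdf15, a stress-induced cytokine, was at 0.440 and 0.352 FPKM in SNL and Control and at 1.33 and 1.24 FPKM in the groups labelled Neat1 shRNA and control shRNA.

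Nearly every TGF-beta superfamily receptor among the members was measured, 11 of 12, with 5 higher and 3 lower after SNL. The higher ones included all the receptors named for TGF-beta. Tgfbr1, the type I receptor that phosphorylates SMAD2 and SMAD3, had 7.48 FPKM after SNL, against 3.26 FPKM in Control (log2 ratio 1.20). Tgfbr2, the type II receptor that binds TGF-beta first, had 57.2 FPKM after SNL, against 33.7 FPKM in Control (log2 ratio 0.76). Tgfbr3 (betaglycan), a co-receptor that presents TGF-beta2 and binds inhibin, had 40.6 FPKM after SNL, against 20.9 FPKM in Control (log2 ratio 0.96). Of the ligands, Tgfb2 and Tgfb3 were within the fold, whereas the row that joins Tgfb1 with B9d2 was past it.

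The type I receptors for BMPs and activins went in both directions. Acvr1 (ALK2), a BMP receptor, had 16.0 FPKM after SNL, against 9.78 FPKM in Control (log2 ratio 0.71). Acvrl1 (ALK1), which is typical of endothelium, had 6.33 FPKM after SNL, against 4.16 FPKM in Control, and its ratio of 1.52 was just past the limit. Acvr1b (ALK4), the type I receptor of activins, was lower with 10.8 FPKM after SNL, against 18.1 FPKM in Control (log2 ratio -0.75), as was Bmpr1b (ALK6) with 0.825 FPKM after SNL, against 1.74 FPKM in Control (log2 ratio -1.08). Bmpr1a (ALK3), with 10.4 FPKM after SNL, against 9.99 FPKM in Control, lay within the fold.

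Of the type II receptors for BMPs and activins, Bmpr2 was lower, with 15.2 FPKM after SNL, against 23.2 FPKM in Control (log2 ratio -0.61). Acvr2a had 6.77 FPKM after SNL, against 7.51 FPKM in Control, and Acvr2b had 2.20 FPKM after SNL, against 2.51 FPKM in Control, both within the fold. Acvr1c (ALK7) was the only receptor among the members under 1 FPKM in all 4 groups. Summed over the 12 receptors the level was 174 FPKM after SNL and 135 FPKM in Control, and Tgfbr2 was the highest of them in both groups.

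**Figure D3:**
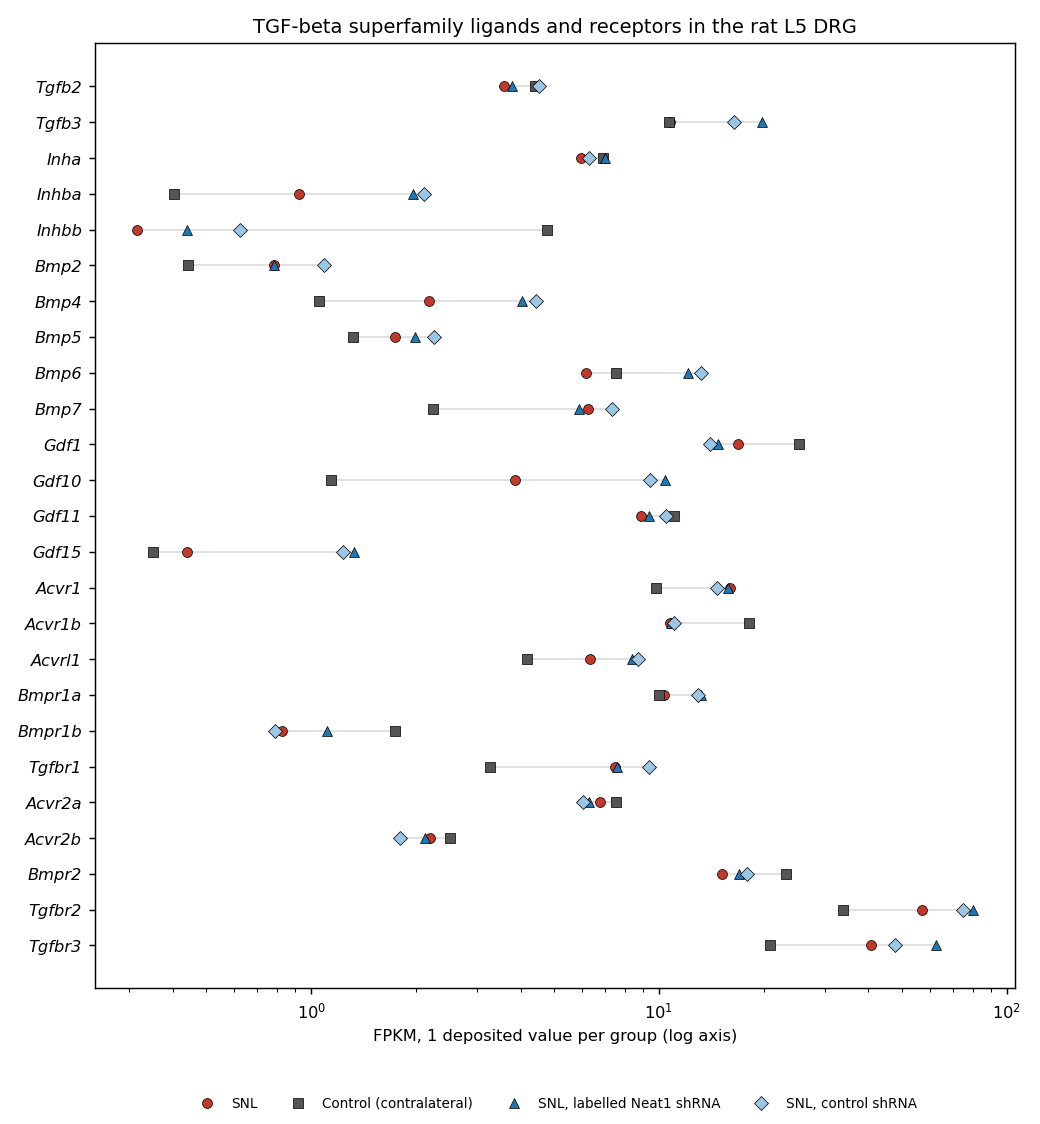
Points give the deposited FPKM on a log axis, 1 value per group, of the TGF-beta superfamily ligands and receptors with 1 FPKM or more in any group. Inhbb has its Control square alone on the right at 4.78 FPKM, and for Tgfbr1, Tgfbr2, Tgfbr3, Bmp7 and Gdf10 the Control square is the lowest of the 4 points.

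The 3 other proteins of the name list were all measured. Bmp1, a metalloprotease that trims procollagens and chordin and is no BMP, had 45.3 FPKM after SNL, against 19.6 FPKM in Control (log2 ratio 1.21). Tgfb1i1 (Hic-5, a focal adhesion adaptor) had 16.9 FPKM after SNL, against 16.9 FPKM in Control. Fgfr1op2, a fusion partner of FGFR1 in leukaemia, had 20.9 FPKM after SNL, against 23.6 FPKM in Control. Only Bmp1 was past the fold, and the fibroblast markers Col1a1 and Col3a1, whose proteins Bmp1 processes, had log2 ratios of 1.29 and 1.37.

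Under 1 FPKM in all 4 groups were 22 members, with a highest value of 0.723 FPKM (Bmp15). They were Fgf3, Fgf6, Fgf8, Fgf16, Fgf17, Fgf19, Fgf20, Fgf21, Fgf22, Fgf23, Bmp3, Bmp8a, Bmp10, Bmp15, Gdf2, Gdf3, Gdf6, Gdf7, Gdf9, Inhbc, Inhbe and Acvr1c. Of these, Fgf3, Fgf6, Inhbc and Inhbe were listed at 0 in every group. They include all 3 endocrine FGFs (Fgf19, Fgf21 and Fgf23), which circulate as hormones. The number of reads behind an FPKM is not given, so how low a level could have been seen is unknown.

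Genes that act before and after the ligands were counted in 7 lists. Their counts after SNL stand beside the 19.2% higher and 16.5% lower of all annotated symbols. Of 16 measured FGF co-factors and transducers, 5 were higher and 2 lower after SNL (median log2 ratio 0.16). Sdc1, a heparan sulfate proteoglycan that can present FGFs, had 34.3 FPKM after SNL, against 2.35 FPKM in Control (log2 ratio 3.87), and the FGFR-binding adhesion protein Flrt3 had 69.4 FPKM after SNL, against 7.06 FPKM in Control (log2 ratio 3.30). The related Flrt1 was lower at a log2 ratio of -3.04, and Sdc4 was higher at 1.14. Of 13 feedback inhibitors and targets of FGF-ERK signalling, 3 were higher and 5 lower (median -0.21). The ERK phosphatase gene Dusp6 had 18.3 FPKM after SNL, against 6.16 FPKM in Control (log2 ratio 1.57), whereas Dusp5 was lower at -1.63, and the ETS factors Etv1 and Etv5 were lower at -1.65 and -0.96.

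The lists of genes around TGF-beta and BMP ligands are read beside the 19.2% higher and 16.5% lower of all annotated symbols. Of 15 measured genes of latency, activation and co-receptors, 8 were higher and 3 lower (median 0.70). Thbs2 and Thbs1, which encode thrombospondins, had log2 ratios of 2.70 and 2.38. Against this, Itgb6, part of the integrin that activates TGF-beta on epithelia, had 0.119 FPKM after SNL, against 2.23 FPKM in Control (log2 ratio -4.24), and the protease gene Tll1 was at -2.17. Of 14 secreted antagonists, 7 were higher and 3 lower (median 0.66). The BMP antagonist Nog had 0.427 FPKM after SNL, against 4.15 FPKM in Control (log2 ratio -3.28), and Fstl1 had 153 FPKM after SNL, against 783 FPKM in Control (log2 ratio -2.35). The activin antagonist Fst was higher at 1.64. The higher genes of this list include Dcn, which is also 1 of the 6 fibroblast markers, and the part of fibroblast number was not tested. In the list of other superfamily ligands and receptors, 5 were measured and 2 were higher and 2 lower, with Artn (1.37) and Nrtn (1.28), ligands of the GDNF family, higher, and Ret (-0.96), their signalling receptor, and Mstn (-0.75) lower.

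Of 12 measured SMADs and regulators, 6 were higher and 2 lower (median 0.59). Smad1 had 31.8 FPKM after SNL, against 10.8 FPKM in Control (log2 ratio 1.55), and Smad3 and the common partner Smad4 were higher at 1.33 and 0.85. Smad9, another SMAD of the BMP branch, had 1.63 FPKM after SNL, against 16.6 FPKM in Control (log2 ratio -3.35). Smad1 and Smad9 thus lay on opposite sides of Control. Of 16 measured genes induced by TGF-beta or BMP SMADs, 12 were higher and none was lower (median 1.32), with Postn, Tgfbi and Fn1 at 2.39, 2.27 and 2.08. These are genes of matrix and its turnover that fibroblasts express, the same list holds Col1a1 and Col3a1 of the fibroblast markers, and all 6 fibroblast markers were higher, Lum among them at a log2 ratio of 1.39. The part of fibroblast number in this list was not tested.

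**Figure D4:**
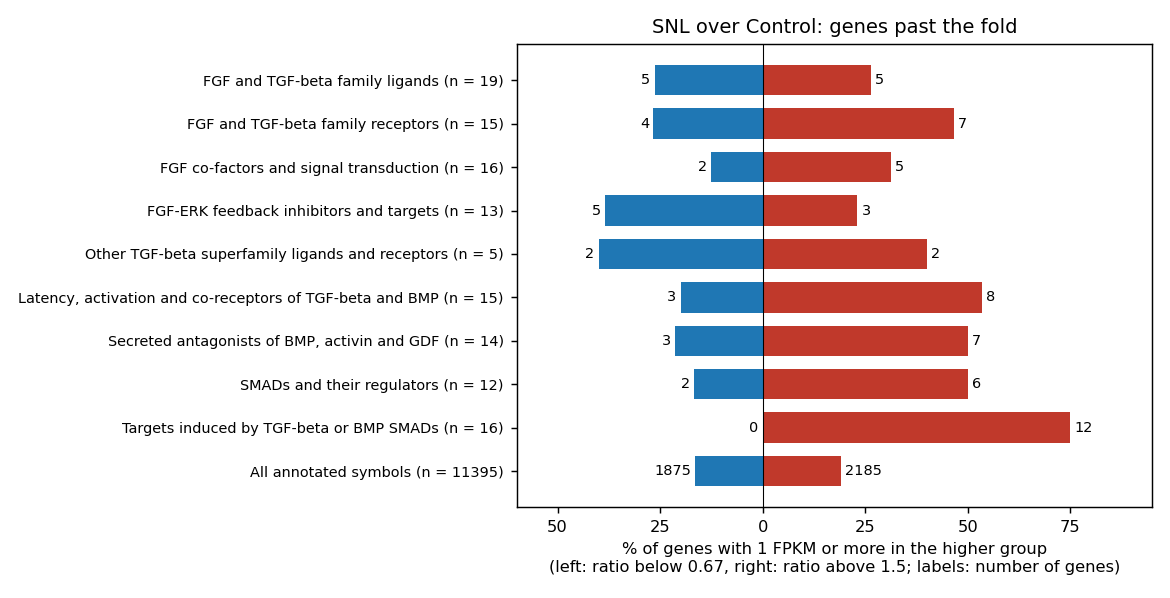
Bars give, for SNL over Control, the percentage of genes with 1 FPKM or more in the higher group whose ratio was above 1.5 (right) or below 0.67 (left), with the number of genes at the bar ends and the number measured in brackets. The lowest bar is for all 11395 annotated symbols, at 19.2% higher and 16.5% lower, and the list of SMAD targets has 12 of 16 on the right and 0 on the left.

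The second comparison asks how the genes differed between SNL rats labelled Neat1 shRNA and SNL rats given control shRNA. Here 41 members were measured, 1 was higher and 1 was lower, whereas of 11420 annotated symbols 1.55% were higher, 4.04% lower and 5.59% either. The members' median log2 ratio was -0.04 (-0.0036 over all symbols), with a median size of 0.16 (0.10 over all symbols). None of the 24 measured genes of the TGF-beta superfamily was past the fold. Beside the 5.59% of all annotated symbols, a count of 0 in 24 genes says little about the superfamily.

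The higher member was Fgf7, with 12.9 FPKM in the group labelled Neat1 shRNA, against 6.60 FPKM with control shRNA (log2 ratio 0.97). Fgf7 had 9.41 FPKM after SNL and 7.13 FPKM in Control. The group labelled Neat1 shRNA was the highest of the 4, set across values that were assembled and normalized separately. The Fgf7 row shares a locus with Galk2 and Fam227b, which had log2 ratios of 0.01 and -0.36 in this comparison. In the comparison of SNL with Control that locus starts elsewhere and also holds Cops2. The lower member, the intracellular Fgf11, had 0.836 FPKM in the group labelled Neat1 shRNA, against 1.255 FPKM with control shRNA. Its ratio of 0.667 was just past the limit, at a level near the floor. The largest log2 ratios within the fold were those of Bmpr1b (0.49, 1.11 FPKM in the group labelled Neat1 shRNA, against 0.789 FPKM with control shRNA), Fgf14 (-0.48, 0.786 FPKM in the group labelled Neat1 shRNA, against 1.10 FPKM with control shRNA) and Bmp2 (-0.48, 0.783 FPKM in the group labelled Neat1 shRNA, against 1.09 FPKM with control shRNA), all from values close to 1 FPKM. In the same comparison the Schwann cell markers summed to 6811 FPKM in the group labelled Neat1 shRNA and 4875 FPKM with control shRNA (1 of 7 higher), the fibroblast markers to 2294 and 2159 FPKM (0 of 6 past the fold), and the T cell markers to 54.9 and 120.1 FPKM (6 of 7 lower). The endothelial and mural markers summed to 240.3 and 186 FPKM (Acta2 higher of 7) and the skeletal muscle markers to 8.32 and 4.51 FPKM (both measured genes higher), in the same order of groups. The part of these markers in the Fgf7 value was not tested.

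None of the 24 members past the fold after SNL was past it between the shRNA groups, where 5.59% of all annotated symbols were, so that a count of 0 says little about the members. Of the 13 higher members all 13 lay within the fold, and of the 11 lower members 9 lay within it and Inhbb and Fgfr4 were under the floor. Fgf2 had 16.3 FPKM in the group labelled Neat1 shRNA, against 17.7 FPKM with control shRNA (log2 ratio -0.13), and Tgfbr2 had 80.1 FPKM in the group labelled Neat1 shRNA, against 74.8 FPKM with control shRNA (log2 ratio 0.10). Fgf5 had 7.27 FPKM in the group labelled Neat1 shRNA, against 9.83 FPKM with control shRNA (log2 ratio -0.44). Among these 13 members Fgf5 was farthest below its control value, and Tgfbr3 with 62.4 FPKM in the group labelled Neat1 shRNA, against 47.8 FPKM with control shRNA (log2 ratio 0.39) was farthest above.

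Between the shRNA groups the pathway lists are read beside the 1.55% higher and 4.04% lower of all annotated symbols. Of the 15 measured FGF co-factors and the 13 FGF-ERK genes none was past the fold. At those shares a count of 0 in lists of this size says little. The most abundant of these genes were near 0 on the log2 scale (Gpc1 0.06, Sdc3 0.17, Dusp6 -0.11 and Spry2 -0.16). Smad9 had 1.83 FPKM in the group labelled Neat1 shRNA, against 0.963 FPKM with control shRNA (log2 ratio 0.93), and was the only one of 12 SMADs and regulators past the fold. Of 14 antagonists Nog (-0.65) and Chrdl2 (-0.64) were lower. Of 16 SMAD targets the smooth muscle genes Acta2 (0.86) and Tagln (0.66) were higher, Acta2 being also 1 of the 7 endothelial and mural markers, and Postn was lower with 13.8 FPKM in the group labelled Neat1 shRNA, against 28.4 FPKM with control shRNA (log2 ratio -1.04). Tll1 was higher (0.73) among 14 latency and activation genes, and Artn lower (-0.65) among 4 other superfamily genes.

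All groups but Control had SNL, and any reading of the AAV groups against Control shares that group with the first comparison, so only the levels are set side by side. Bmp7 was at 5.89 and 7.33 FPKM, Tgfbr1 at 7.57 and 9.35 FPKM, Fgf9 at 4.18 and 3.65 FPKM and Fgf18 at 4.26 and 4.69 FPKM in the groups labelled Neat1 shRNA and control shRNA. These values are from a table that was assembled and normalized separately. Set across the tables, the log2 ratio of control shRNA over SNL had a median of 0.24 over the 44 members with 1 FPKM or more in any of the 4 groups, and 0.13 over 11179 annotated symbols with 1 FPKM or more in either of the groups set across. Over those 44 members it ran from -1.05 (Fgf4) to 1.49 (Gdf15). After Gdf15, the highest was Gdf10 (1.28), at 10.4 and 9.41 FPKM in the groups labelled Neat1 shRNA and control shRNA. Vector, injection and table all differ between these groups and cannot be told apart.

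The most abundant members were not the same in Control and in the SNL groups. In Control the first 3 were Fgf13, Fgf1 and Fgf12, at 168, 156 and 120.1 FPKM. After SNL they were Fgf1, Fgfr1 and Tgfbr2, at 107, 70.5 and 57.2 FPKM. Fgfr1, Tgfbr2 and Fgf1 led in the group labelled Neat1 shRNA (92.6, 80.1 and 68.5 FPKM), and with control shRNA the first was Fgfr1 at 93.1 FPKM, followed by Fgf1 and Tgfbr2 at 75.4 and 74.8 FPKM. With 1 value per group it is not known which neighbours in these orders differ beyond the spread between animals.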

How the data were processed

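According to the methods, the authors made stranded polyA libraries from L5 DRG RNA, aligned reads to rn5 with RefSeq genes, and assembled and compared transcripts with Cufflinks (both also named in the submitters' processing notes). The deposited tables, 1 per comparison, hold 1 FPKM value per group over 3 libraries, made by the authors. The authors' own comparison columns (a log2 fold change, a test statistic, p and q values and a significance mark) were not used. Ratios (SNL over Control, and Neat1 shRNA over control shRNA) were computed from the FPKM with Python 3.11.15, numpy 2.4.6 and pandas 2.3.3, and figures were drawn with matplotlib 3.10.9. Rows without a symbol (10418 of 28578 and 10624 of 28745) and 25 rows per table whose symbol had become a date were left out, and a row with several joined symbols counted as 1 symbol. Library depth is unknown, so no interval is given. The ratio code was tested on simulated data. The members, the 7 pathway lists and the marker lists were chosen with earlier results of these data known. All members at 1 FPKM or more were named, and per list up to 4 genes past the fold with the largest log2 ratio, or, where fewer than 2 were past it, the 2 with the highest mean FPKM. Some genes that this rule names are not reported here. Alternatives were other folds, floors and pseudocounts, centring on the median, summing rows, and ligands and receptors alone.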

Additional observations from a re-analysis of the deposited data

How the results depend on the processing

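No paired analysis was possible because the tables hold 1 value per group, and for the same reason no library could be left out. For SNL against Control, folds of 2 and 0.5 gave 8 higher and 7 lower of 39 members, beside 10.6% and 8.54% of all symbols. A floor of 5 FPKM gave 7 lower of 27, beside 16.0% of all symbols. No floor gave 22 higher of 61, beside 24.3% of all symbols. It also turned the median log2 ratio to 0.0043 over 58 members, since many members under 1 FPKM were added. For Neat1 shRNA against control shRNA, folds of 2 and 0.5 left 0 higher and 0 lower, a looser pair of folds (the lower limit 0.8) gave 4 and 4, no floor gave 6 and 6, and a floor of 5 FPKM or a pseudocount of 1 or 0.1 left 0 lower, as Fgf11 no longer passed. The other counts stayed within 1.5 times of the values given, and no member past the fold changed direction under the pseudocounts, the centring or the summed rows. With a pseudocount of 1, Acvrl1, Fgf10, Fgfr3 and Gdf1 were no longer past the fold after SNL, and with summed rows Gdf1 was not. A floor on the mean of both groups, chosen after seeing the data, gave 13 higher and 10 lower of 38 members after SNL, and 1 and 1 of 38 between the shRNA groups. The spread between animals and the depth behind low values are unknown.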
